A study of Mus musculus with 4 samples.

Results

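The interleukin and tumour necrosis factor (TNF) superfamily genes are the signalling proteins, receptors and decoys through which leukocytes, epithelium and stroma exchange inflammatory signals. They were chosen by gene symbol, with earlier results of these data known. Members were every symbol starting with Il and a number, every Tnfsf and Tnfrsf symbol, and Tnf, Lta, Ltb and Ltbr. This gave 107 of the 15366 named genes measured in mouse bladder, read by 160 of 46657 array probes. Of these, 72 carry an interleukin name and 35 belong to the TNF superfamily. Where a gene had several probes, as 34 of the 107 genes did, its brightest probe by the 4-array mean stands for it.

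Bladders of male mice on a normal diet were studied after a sham operation or after partial bladder outlet obstruction, in which the outlet is narrowed so that the bladder must work harder to empty. Biotin-labelled total RNA was read on Illumina arrays, 2 of the sham group and 2 of bladders obstructed for 14 days, called replicates 1 and 2 of their group. Whether those were different mice is not in the labels, so p-values describe the variation among these 4 samples and that variation may be technical. The labels used here give no strain or age. The work asked how gene regulation, including by GATA and NF-kB factors, differs in an overgrown, obstructed bladder muscle.

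Interleukins are secreted proteins that act on neighbouring cells through receptors built of a ligand-binding chain and a shared signalling chain. The IL-1 family signals through adaptors of the toll receptor pathway to NF-kB, the IL-6 family through gp130 to STAT3, and many T cell cytokines through the common gamma chain to STAT5 or STAT6. TNF superfamily ligands bind receptors that recruit TRAF adaptors, and a subset of these receptors carries a death domain that can start apoptosis. Decoy receptors and binding proteins take up the ligand without signalling.

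The promoters of 4 members are shown because the study is about NF-kB and GATA factors and these genes carry the results or the motifs. Tnfrsf12a, the receptor for TWEAK, had the largest difference towards the obstructed group, and Tnfrsf17, the B cell maturation antigen, had the largest difference towards sham among members with an unadjusted p below 0.05. Il6 and Ltb, classical inflammatory cytokines, stood near the median of all probes and carry NF-kB motifs. Each line gives the 250 bases upstream of the RefSeq transcript start (build GRCm38.p6), 5′ to 3′ on the gene's strand, in lower case, with motif matches in capitals.
Tnfrsf12a, chr17:23677450-23677699, minus strand: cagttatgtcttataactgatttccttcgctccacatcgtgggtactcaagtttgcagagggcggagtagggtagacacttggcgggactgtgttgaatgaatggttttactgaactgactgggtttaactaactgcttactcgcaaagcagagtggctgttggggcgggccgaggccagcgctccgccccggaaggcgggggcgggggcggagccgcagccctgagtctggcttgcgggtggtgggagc
Tnfrsf17, chr16:11313559-11313808, plus strand: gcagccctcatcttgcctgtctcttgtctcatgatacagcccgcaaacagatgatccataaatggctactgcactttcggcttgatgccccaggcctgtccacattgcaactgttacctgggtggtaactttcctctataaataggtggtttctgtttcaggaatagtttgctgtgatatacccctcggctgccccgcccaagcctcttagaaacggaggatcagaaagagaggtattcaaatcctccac
Il6, chr5:30012864-30013113, plus strand: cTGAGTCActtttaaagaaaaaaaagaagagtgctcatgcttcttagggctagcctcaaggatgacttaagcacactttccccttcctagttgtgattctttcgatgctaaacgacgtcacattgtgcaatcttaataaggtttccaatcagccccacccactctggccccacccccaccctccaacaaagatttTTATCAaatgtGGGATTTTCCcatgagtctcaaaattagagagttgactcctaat
Ltb, chr17:35194257-35194506, plus strand: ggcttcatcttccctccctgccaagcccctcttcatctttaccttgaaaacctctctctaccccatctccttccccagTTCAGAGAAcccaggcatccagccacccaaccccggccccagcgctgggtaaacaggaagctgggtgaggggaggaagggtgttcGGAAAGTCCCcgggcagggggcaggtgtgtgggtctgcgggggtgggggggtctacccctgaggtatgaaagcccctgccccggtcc

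Both strands were searched for the NF-kB motif, for a GATA motif (AGATAA, or the same with T as first base or G as last), for a STAT motif (TTCNNNGAA) and for the AP-1 motif (TGACTCA). In Il6 the capitals mark an AP-1 match, TGAGTCA, at -249 to -243, a GATA match on the opposite strand, TTATCA, at -55 to -50, and an NF-kB match, GGGATTTTCC, at -44 to -35 from the start. In Ltb they mark a STAT match, TTCAGAGAA, at -172 to -164 and an NF-kB match on the opposite strand, GGAAAGTCCC, at -87 to -78. The windows of Tnfrsf12a, Tnfrsf17 and Il6st held none of these letters. Of the 107 members, 83 had an entry in the promoter table, and 5 of them (6.02%) held an NF-kB match, against 7.01% of all 27025 promoters. A GATA match stood in 23 members (27.7%), against 27.1% of all promoters. STAT matches stood in 10 members (12%) against 7.18%, and AP-1 matches in 12 members (14.5%) against 4.43%. These matches are descriptions of the letters and were not read as binding sites.

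Values are log2 intensities. Each array ran from about background upwards with a median of 5.8 over all probes, and with no detection test a value near or below that median cannot be told apart from background. Of the 107 members, 57 had a higher group mean above this median, and 41 lay below it on all 4 arrays. Of the members with an interleukin name 36 of 72 lay above it, and of the TNF superfamily 21 of 35. Since RNA came from whole bladders, fewer cells of a type and less RNA per cell cannot be told apart.

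Obstructed replicate 2 stood apart from the other arrays. Over all genes it correlated at 0.961 and 0.962 with the sham arrays and at 0.969 with obstructed replicate 1, whereas obstructed replicate 1 correlated at 0.982 and 0.981 with the sham arrays and the sham arrays at 0.989 with each other. All 11 measured genes of the male accessory glands were higher in both obstructed arrays than in both sham arrays, against 17.6% of all genes. Their median was 3.26 log2 units above the sham mean in replicate 1 and 9.0 in replicate 2. The gland gene Sbp also read 11.91 in sham replicate 1 against 5.89 in sham replicate 2. All 8 smooth muscle markers and 7 of 9 measured urothelium markers lay above the median, which together go with the labelled tissue. The smooth muscle markers had a median difference from sham of -0.24 in obstructed replicate 1 and -1.22 in replicate 2. Values below are therefore given array by array or for each obstructed array singly wherever a gene is described, and the part of gland tissue in the results was not tested.

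No member passed the test between obstructed and sham. With limma and Benjamini-Hochberg adjustment over all genes, 0 of 107 members had an adjusted p below 0.05 in either direction, where 8 of all 15366 genes did (0.0521%, 4 in each direction, 0.026%). At an unadjusted p below 0.05 there were 6 members higher in the obstructed arrays (5.61%), against 3.05% of all genes. There were 2 members lower (1.87%), against 5.09% of all genes, so that 8 members in all (7.48%) stood beside a background of 8.14%. The obstructed values lay wholly above the sham values in 20 members (18.7%), where 17.6% of all genes did so, and wholly below in 15 (14.0%), where 21.6% did. The median difference over the members was 0.01 log2 units, against -0.02 over all genes, and the differences ran from -0.70 in Il6st to 0.81 in Tnfrsf12a. Among the 57 members above the median of all probes, 2 stood higher and 2 stood lower at an unadjusted p below 0.05, where 3.56% and 6.42% of all genes above that median were. Membership of these 57 goes by the higher group mean, so Il1f10 passed only through its obstructed mean and Tnfrsf17 only through its sham mean. Of the same 57, the groups did not overlap in 10 towards higher (17.5%) and in 12 towards lower (21.1%), against 18.3% and 23.8% of genes above the median.

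**Figure D1:**
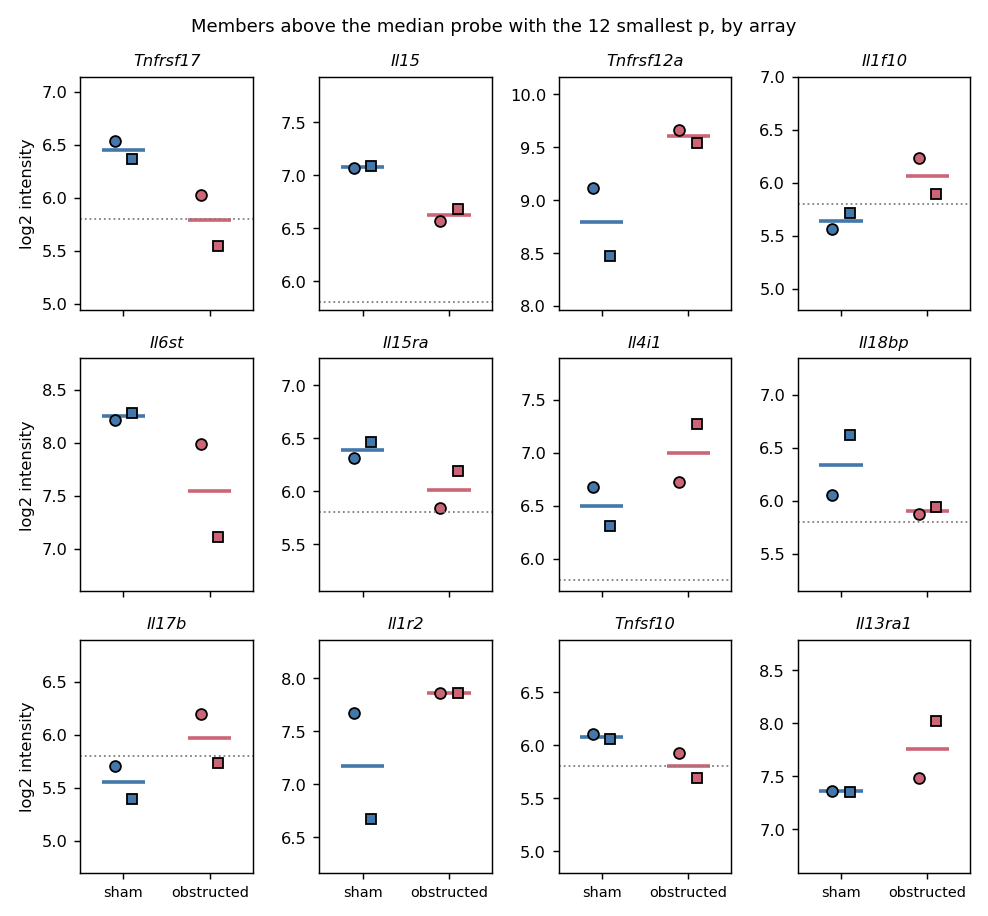
Log2 intensity (vertical axis) by group for the 12 members above the median of all probes with the smallest p, circles being replicate 1, squares replicate 2, horizontal lines group means and the dotted line the median of all probes at 5.8. Tnfrsf12a and Il15 show obstructed arrays close together and away from sham, whereas Il6st, Il4i1 and Il13ra1 differ mainly in obstructed replicate 2.

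Tnfrsf12a encodes the receptor for the TNF superfamily cytokine TWEAK and is known as a growth factor and injury induced gene. It read 9.11 and 8.47 in sham and 9.66 and 9.54 after obstruction. Both obstructed arrays lay above both sham arrays, and the sham arrays differed from each other more than the obstructed arrays did. The difference was 0.81 log2 units (1.75-fold, SE 0.27, 95% interval 0.15 to 1.47, limma unadjusted p = 0.0242, adjusted p = 0.537). It was similar in size in each obstructed array against the sham mean, 0.87 in replicate 1 and 0.75 in replicate 2, but it depended on the sham array used, being 0.49 or 1.13 when either sham array was left out. Its ligand gene Tnfsf12 lay below the median on every array, at 4.99 and 5.09 in sham and 5.08 and 4.88 after obstruction.

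Tnfrsf17, the B cell maturation antigen of plasma cells, read 6.54 and 6.37 in sham and 6.02 and 5.55 in the obstructed arrays. The groups did not overlap, and obstructed replicate 2 was below the median of all probes. The difference was -0.67 (1.59-fold lower, SE 0.19, 95% interval -1.14 to -0.19, limma unadjusted p = 0.0135, adjusted p = 0.472). Its ligands and related receptors gave no common direction. Tnfsf13, which encodes APRIL, read 9.03 and 8.76 in sham and 9.23 and 8.65 after obstruction, and Tnfsf13b, which encodes the B cell survival factor BAFF, read 7.75, 8.02, 7.80 and 7.27 in the same order. The other receptors of these ligands, Tnfrsf13b at 6.09, 5.99, 6.30 and 5.798 and Tnfrsf13c at 5.41, 5.68, 5.70 and 5.23, overlapped between the groups. A dimmer second probe of Tnfrsf13b read 4.99 and 5.11 in sham and 6.04 and 5.49 after obstruction without overlap, a difference of 0.71 (limma adjusted p = 0.442 over all probes), so the probes of this gene disagree. Of 6 measured B cell markers 2 lay above the median, and their summed linear level was 331 and 270 in sham and 321 and 269 in the obstructed arrays, so those markers did not separate the groups, and their part in the Tnfrsf17 difference was not tested.

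Il15 encodes a cytokine that keeps natural killer and memory T cells alive and is presented to them by its receptor chain Il15ra on the producing cell. Il15 read 7.07 and 7.09 in sham and 6.57 and 6.68 after obstruction. Both obstructed arrays lay below both sham arrays, by more than either pair differed. The difference was -0.45 (1.37-fold lower, SE 0.15, limma adjusted p = 0.524), and its other 2 probes were below the median on all arrays. Il15ra, whose values were seen before it was chosen for mention, read 6.31 and 6.47 in sham and 5.85 and 6.19 after obstruction, also without overlap, with a difference of -0.37 (adjusted p = 0.644, limma). Its second probe above the median overlapped between the groups, at 6.001, 5.87, 5.72 and 6.01, and its 2 dimmer probes had differences of 0.16 and 0.27 in the opposite direction. Il2rb, the signalling chain that IL-15 and IL-2 share, read 6.40, 6.51, 6.20 and 6.70, the obstructed arrays lying on either side of sham. The 11 measured T cell and natural killer cell markers had a median difference from sham of 0.17 in obstructed replicate 1 and -0.28 in replicate 2, and their summed linear level was 2124 and 2381 in sham and 3927 and 1984 after obstruction. Most of that sum was Thy1, a gene also of stromal and nerve cells, without which it was 664 and 663 in sham and 749 and 544 after obstruction. Of the 11 markers, 6 had a higher and 5 a lower mean in the obstructed arrays. The groups did not overlap in 1 towards higher and in 3 towards lower, against 17.6% and 21.6% of all genes. Those 3 were Nkg7, Klrb1c and Ncr1, natural killer cell genes singled out after their values were seen. The 11 markers together had a median difference of 0.02 between the group means. Nkg7, Klrb1c and Ncr1 differed by -0.34, -0.43 and -0.51 (limma adjusted p = 0.702, 0.545 and 0.644). The part of these cells in the Il15 values was not tested.

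Il1f10, which encodes IL-38 of the IL-1 family, was the remaining member above the median with an unadjusted p below 0.05. It read 5.57 and 5.72 in sham and 6.24 and 5.89 after obstruction, a difference of 0.42 (SE 0.16, limma adjusted p = 0.594). Only its obstructed values exceeded the median of all probes. The other 4 members at an unadjusted p below 0.05 were all below that median on every array and were named after their values were seen except Il11. Tnfsf15, which encodes the ligand TL1A, read 5.22 and 5.15 in sham and 5.66 and 5.55 after obstruction (difference 0.42, limma adjusted p = 0.464). Its receptor gene Tnfrsf25 read 5.97 and 5.74 in sham and 5.68 and 5.73 after obstruction. Il22, a cytokine that acts on epithelium, read 5.08, 5.22, 5.62 and 5.39, and Il1rn, the IL-1 receptor antagonist, read 4.78, 4.90, 5.14 and 5.13. Il11, a gp130 cytokine of stromal cells, read 5.51, 5.44, 5.78 and 5.79. The differences of these dim genes were 0.30 to 0.42, at limma adjusted p-values of 0.464 to 0.597.

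**Figure D2:**
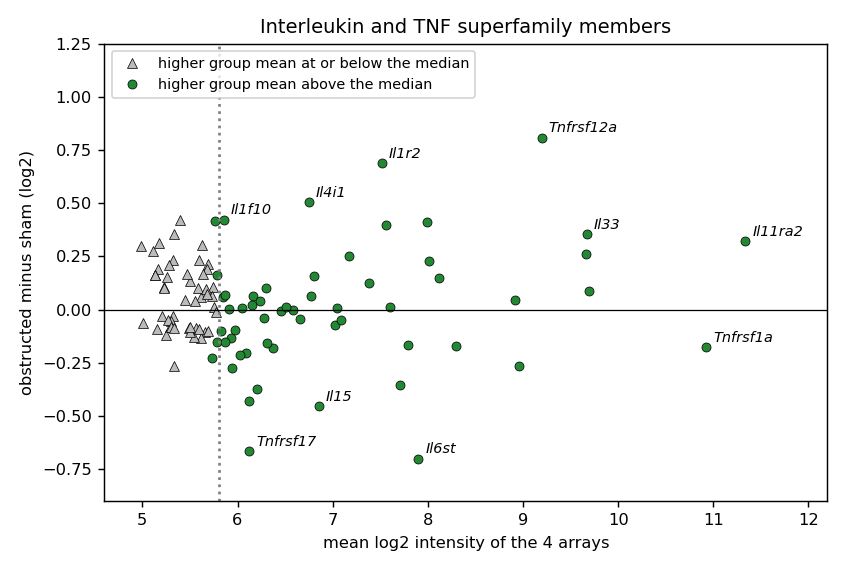
Difference between obstructed and sham means (log2, vertical axis) against the mean log2 intensity of the 4 arrays (horizontal axis) for the 107 members, circles having a higher group mean above the median of all probes (dotted line) and triangles not. The differences run from -0.70 in Il6st to 0.81 in Tnfrsf12a, and most members lie near the zero line.

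Among the 8 IL-1 family ligands, 0 passed the test and 3 lay above the median. Il33, a nuclear alarmin of epithelium and stroma, read 9.53 and 9.46 in sham and 9.95 and 9.75 after obstruction. Both obstructed values lay above both sham values, with a difference of 0.36 (SE 0.21, 95% interval -0.15 to 0.86, limma adjusted p = 0.711). Il18, which is released after inflammasome cleavage, read 7.29 and 6.93 in sham and 7.17 and 6.95 after obstruction, with full overlap. Il1b, the principal secreted IL-1, read 5.51, 5.45, 5.66 and 5.76 and Il1a read 5.75, 5.47, 5.33 and 5.63, all of these below the median. Il1f9, an IL-36 cytokine of epithelium, read 5.72, 5.66, 5.91 and 5.67.

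Of the 6 measured IL-1 family receptors, 5 had a higher mean in the obstructed arrays and none passed the test. Il1r1, the signalling receptor for IL-1, read 7.37 and 6.71 in sham and 7.42 and 7.16 after obstruction, and the sham arrays alone spanned most of that range. Il18r1, the binding chain for IL-18, read 7.87 in both sham arrays and 7.40 and 8.01 after obstruction, so the obstructed arrays lay on opposite sides of sham. Il1rl2, the IL-36 receptor, read 6.75, 6.73, 6.97 and 6.63, and Il1rap, the second chain of the IL-1 and IL-36 receptors, read 6.18, 6.10, 6.17 and 6.16.

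Antagonists and decoys numbered 5. Il1r2, the decoy receptor that takes up IL-1 without signalling, read 7.67 and 6.67 in sham and 7.86 in both obstructed arrays. The difference of 0.69 (SE 0.33, limma adjusted p = 0.675) was smaller than the gap between the sham arrays. Il18bp, which binds IL-18, read 6.06 and 6.62 in sham and 5.87 and 5.94 after obstruction, a difference of -0.43 (adjusted p = 0.665, limma). Il13ra2, the decoy chain for IL-13, read 8.43, 8.33, 8.16 and 8.26.

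The list of 10 gamma chain and type 2 cytokine genes, in which Il3 was also counted, had 7 lower and 3 higher means in the obstructed arrays. None passed the test. Il4 and Il13, the cytokines of type 2 helper cells, lay close above the median. Il4 read 6.13 and 6.14 in sham and 5.99 and 5.85 after obstruction, and Il13 read 6.22, 6.17, 5.95 and 6.02, neither with overlap between the groups. Il7, which lymphocytes need to survive, read 6.36, 6.22, 6.46 and 6.05, and Il21, a T helper cytokine, read 4.74, 5.29, 5.21 and 5.44. Of the 9 receptors, Il13ra1, which pairs with the IL-4 receptor, read 7.36 and 7.35 in sham and 7.49 and 8.02 after obstruction. Its difference of 0.40 came largely from obstructed replicate 2. Il3ra, the binding chain for IL-3, read 8.02, 7.55, 8.47 and 7.93, the reverse case, in which obstructed replicate 1 was the higher array. Il4i1, an amino acid oxidase named for its induction by IL-4 and no receptor, read 6.68 and 6.31 in sham and 6.72 and 7.27 after obstruction, a difference of 0.50 (SE 0.24, limma adjusted p = 0.656).

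The 8 receptors of the IL-6 and IL-12 families held the largest negative difference. Il6st, which encodes the shared chain gp130, read 8.22 and 8.28 in sham and 7.99 and 7.11 after obstruction, a difference of -0.70 (1.63-fold lower, SE 0.31, 95% interval -1.45 to 0.05, limma adjusted p = 0.642). Most of it lay in obstructed replicate 2. A second Il6st probe above the median read 7.55 and 7.60 in sham and 7.55 and 7.63 after obstruction, a difference of 0.01, so the 2 probes of this gene disagree. Il11ra2, an IL-11 receptor gene with the near-identical copy Il11ra1, so that its identity is uncertain, read 11.25 and 11.10 in sham and 11.61 and 11.39 after obstruction (difference 0.32, limma adjusted p = 0.716). Il6ra, the IL-6 binding chain, read 6.24, 6.68, 6.30 and 6.26. The ligands of these families all lay close to or below the median. Il6 read 5.58 and 5.66 in sham and 5.85 and 5.58 after obstruction, and Il12a, a subunit of IL-12, read 5.40, 5.77, 5.81 and 5.48.

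No member of the IL-10 and IL-17 families passed the test. Il10, an anti-inflammatory cytokine, read 5.63 and 5.79 in sham and 5.54 and 5.66 after obstruction, and all 4 ligands of its family had a higher group mean at or below the median. Il20 read 5.53, 5.41, 5.10 and 5.30, and Il24 read 5.88, 5.68, 5.89 and 5.65. Il10rb, the chain shared by IL-10 and IL-22 receptors, read 9.70, 9.60, 9.82 and 9.65, Il20ra read 6.68, 6.77, 7.15 and 6.62, and Il10ra read 5.90, 5.93, 6.11 and 5.72. Il17re, the receptor chain for IL-17C of epithelium, read 9.58 and 9.48 in sham and 9.76 and 9.83 after obstruction without overlap (difference 0.26, limma adjusted p = 0.781). Il17rc, which binds IL-17A and IL-17F together with Il17ra, read 8.18, 7.91, 8.31 and 8.08, and Il17ra read 6.60, 6.75, 6.48 and 6.78. Il17b had a difference of 0.42 (limma adjusted p = 0.667), with sham at 5.71 and 5.39 and obstructed at 6.20 and 5.74. Il16, a chemoattractant for CD4 cells, read 7.02, 7.10, 7.40 and 6.57, Il34, a ligand of the macrophage receptor Csf1r, read 6.05, 5.98, 6.21 and 5.64, and Il17d read 5.64, 6.04, 5.98 and 5.25. In these 3 genes obstructed replicate 2 was the lowest array.

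**Figure D3:**
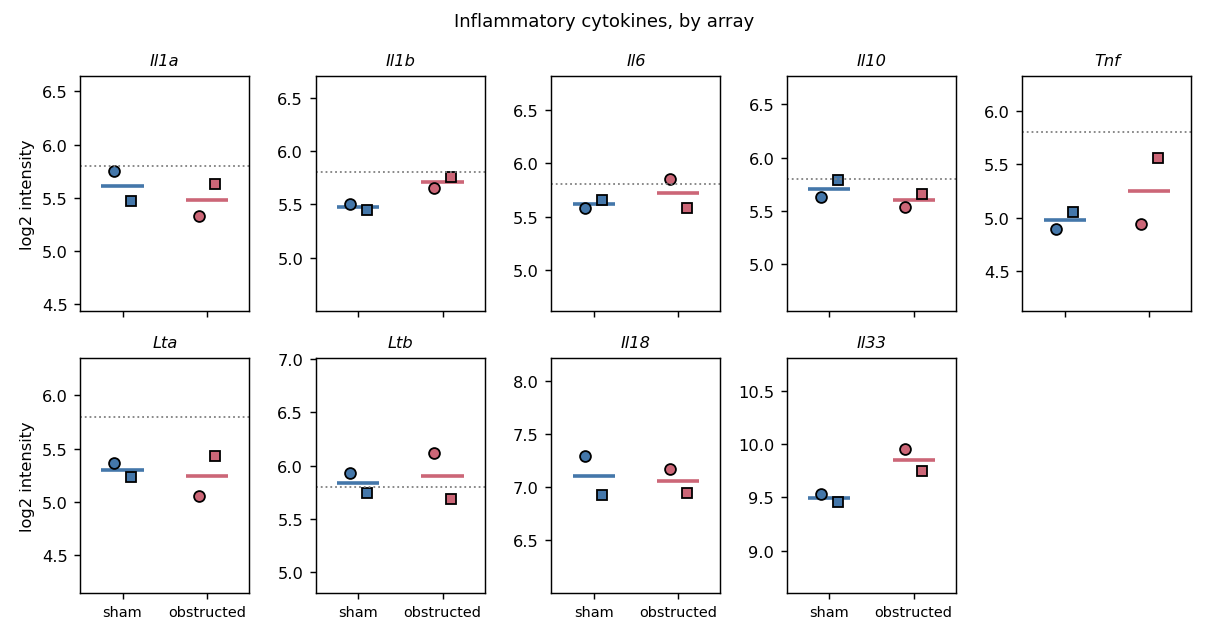
Log2 intensity (vertical axis) by group for 9 inflammatory cytokine genes, circles being replicate 1, squares replicate 2, horizontal lines group means and the dotted line the median of all probes at 5.8. Il33 and Il18 lie well above the median, whereas Il1a, Il1b, Il10, Tnf and Lta stay below it on all arrays and Il6 and Ltb lie close to it.

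TNF superfamily ligands numbered 14, of which 7 had a higher and 7 a lower mean in the obstructed arrays. Tnf, the cytokine that gave the family its name, read 4.89 and 5.05 in sham and 4.94 and 5.56 after obstruction, below the median throughout. Lta read 5.36, 5.24, 5.06 and 5.44, and Ltb, which forms lymphotoxin with it, read 5.93, 5.74, 6.12 and 5.69. Their receptor gene Ltbr read 8.0 and 7.80 in sham and 8.33 and 7.93 after obstruction. Tnfsf10, which encodes the death ligand TRAIL, read 6.10 and 6.06 in sham and 5.92 and 5.69 after obstruction, lower without overlap (difference -0.27, limma adjusted p = 0.689). Its death receptor gene Tnfrsf10b read 6.57, 6.43, 6.51 and 6.52.

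Of the 4 death domain receptors, Tnfrsf1a, the main TNF receptor of stroma, had the widest gap between the obstructed arrays of all 107 members. It read 11.001 and 11.02 in sham and 11.36 and 10.31 after obstruction, so that the small mean difference of -0.18 (limma adjusted p = 0.932) stands for 0.34 in replicate 1 and -0.70 in replicate 2. Tnfrsf21, known as death receptor 6, read 6.84, 7.24, 6.89 and 7.20. Tnfrsf1b, the TNF receptor of leukocytes and endothelium, read 6.15 and 6.29 in sham and 6.63 and 5.89 after obstruction. Among receptors without a death domain, Tnfrsf19, an orphan receptor known from epithelial stem cells, read 9.10 and 9.08 in sham and 8.84 and 8.80 after obstruction. This was lower without overlap, with both pairs close together, and the difference was -0.27 (SE 0.19, limma adjusted p = 0.769). A dimmer second Tnfrsf19 probe above the median read 5.88 and 6.14 in sham and 6.11 and 6.01 after obstruction. Its groups overlapped with a difference of 0.06, so the probes of this gene disagree. Tnfrsf11a, the receptor RANK, read 7.23, 7.41, 7.44 and 7.45, and Tnfrsf9, a costimulator of T cells, read 5.39, 4.96, 5.59 and 5.18. Tnfrsf11b, which encodes the soluble decoy osteoprotegerin, read 6.15 and 6.35 in sham and 6.81 and 5.90 after obstruction. The decoy TRAIL receptor genes Tnfrsf22 and Tnfrsf23, which are close copies of each other, read 7.61, 7.59, 7.93 and 7.29 for the former and 5.02, 5.07, 5.24 and 5.19 for the latter.

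By their brightest probes, the 39 members not named above had differences from -0.16 (Tnfrsf14) to 0.23 (Il18rap), with single values of 4.85 to 6.68. Their differences from the sham mean ran from -0.39 to 0.48 in obstructed replicate 1 and from -0.31 to 0.36 in replicate 2. A slightly dimmer probe of Tnfrsf8, picked after its values were seen, lay outside this range. It read 5.73 and 5.83 in sham and 5.35 and 5.38 after obstruction, a difference of -0.42 (limma adjusted p = 0.444 over all probes).

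Read singly, the 2 obstructed arrays gave different pictures. When obstructed replicate 1 alone was set against the sham arrays, assuming that it varies as they do, limma called 0 of 107 members, where 2.1% of all genes were called (154 higher, 1.0%, and 169 lower, 1.1%). The median difference from the sham mean over the 107 members was 0.09 in obstructed replicate 1 and -0.01 in replicate 2. Over all genes these medians were -0.0016 and -0.030. With obstructed replicate 2 alone, 3 of 107 members (2.8%) were called, where 8.45% of all genes were (519 higher, 3.38%, and 780 lower, 5.08%). Il4i1 was higher by 0.78 (adjusted p = 0.0228, limma), and Il6st and Tnfrsf17 were lower, with differences of -1.14 (adjusted p = 0.00253) and -0.91 (adjusted p = 0.00398). Against the sham arrays these genes stood at 0.23, -0.27 and -0.43 in obstructed replicate 1.

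In 16 of the 57 members above the median (28.1%), obstructed replicate 1 lay above both sham arrays and obstructed replicate 2 below both, which 12.5% of all genes above the median did. The opposite order was seen in 3 members (5.26%), against 7.98% of genes. The gap between the obstructed arrays was wider than that between the sham arrays in 40 of the 57 (70.2%, against 62.0% of genes), with a median gap of 0.31 between the obstructed and 0.14 between the sham arrays. The 16 members with obstructed replicate 1 above and replicate 2 below both sham arrays were Tnfrsf1a, Tnfrsf1b, Tnfrsf11b, Tnfrsf13b, Tnfrsf22, Tnfrsf26, Tnfsf13, Ltb, Il1rl2, Il5ra, Il7, Il10ra, Il16, Il17rd, Il20ra and Il34. In their group means the 2 obstructed arrays largely cancel. This pattern was noticed in the values and has no test.

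**Figure D4:**
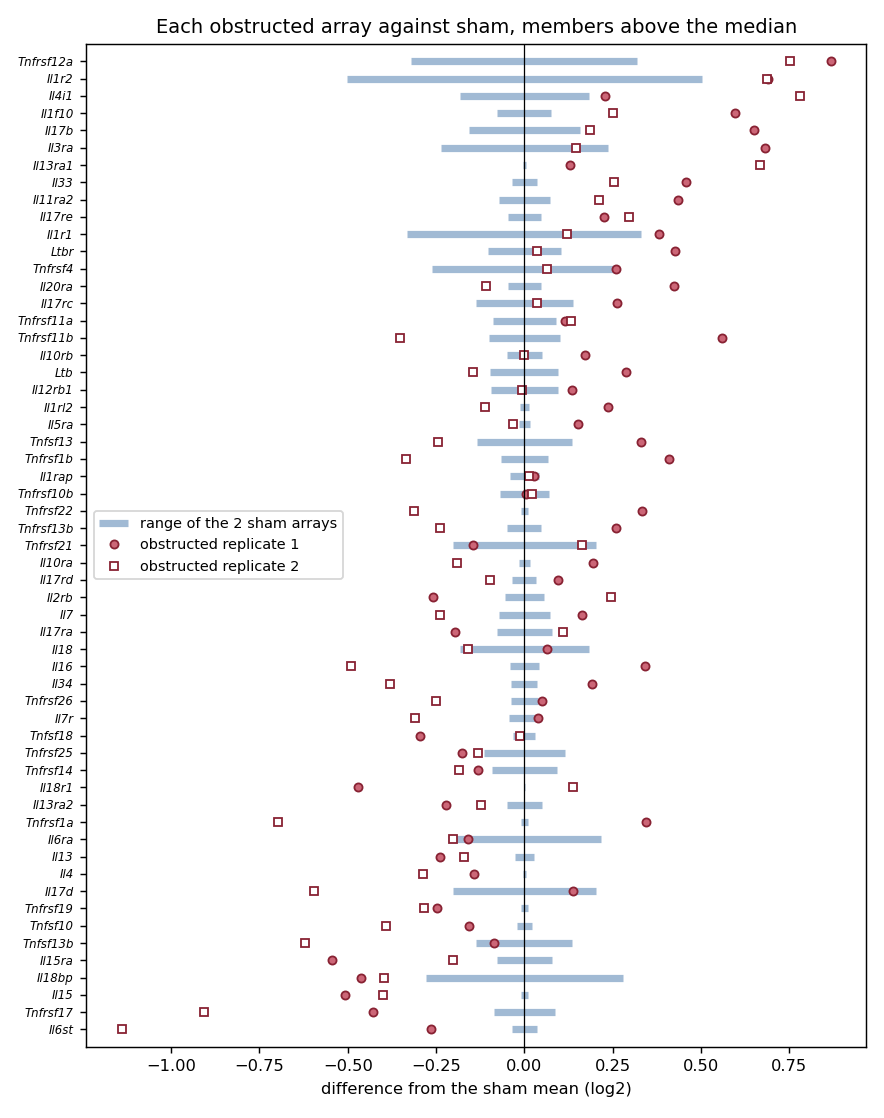
Difference from the sham mean (log2, horizontal axis) of obstructed replicate 1 (filled circles) and replicate 2 (open squares) for the 57 members above the median of all probes, ordered by their mean difference, with the blue bar spanning the 2 sham arrays. In 16 members the circle lies to the right of the bar and the square to its left.

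Except for neutrophils, the medians of the leukocyte marker lists stood in the same order between these arrays. The order was not particular to leukocytes, since 7 endothelium markers had medians against sham of 0.23 in obstructed replicate 1 and -0.33 in replicate 2. The 6 markers of all leukocytes all lay above the median. They had a median difference from sham of 0.51 in obstructed replicate 1 and -0.60 in replicate 2. In replicate 2 Cd52 went against that median, being high against sham at 10.90. The 10 measured macrophage and monocyte markers, 9 of them above the median, had medians of 0.40 and -0.75, and their summed linear level was 3719 and 4331 in sham and 5479 and 2105 in the obstructed arrays. For the 7 mast cell markers, 5 of them above the median, the medians were 1.38 and -0.14, with Cpa3, a mast cell protease, at 2.36 and -1.39, but Kit, also a marker of interstitial cells, at -1.83 and -2.20. Their sums were 904 and 730 in sham and 1327 and 392 after obstruction. The 8 neutrophil markers, 4 of them above the median, had medians of -0.03 and 0.00. Smooth muscle markers (-0.24 and -1.22) and 7 fibroblast markers (-0.12 and -0.67) were also lower in replicate 2, and 9 urothelium markers stood at -0.01 and 0.02. None of these lists holds a value of 0, since the arrays give every probe an intensity. The part of leukocyte, muscle or gland content in the members' values was not tested.

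**Figure D5:**
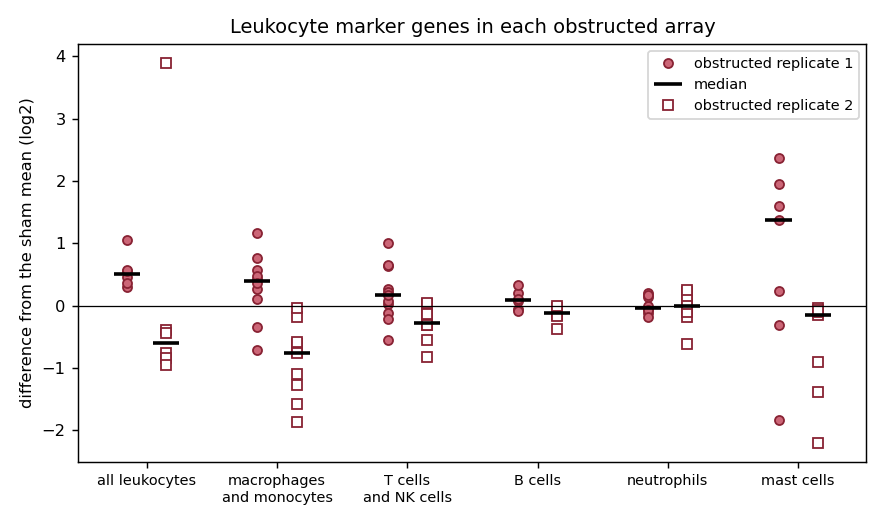
Difference from the sham mean (log2, vertical axis) of each measured marker gene in 6 leukocyte lists, filled circles being obstructed replicate 1, open squares obstructed replicate 2 and black lines the medians. Macrophage markers have medians of 0.40 and -0.75, and mast cell markers 1.38 and -0.14.

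The genes that carry these signals onwards also gave no call. Of 114 listed adaptors, kinases, transcription factors, partner cytokines and induced genes that are no members, 101 were measured. Among them, 0 passed the test in either direction, 4 stood higher (3.96%, against 3.05% of all genes) and 7 stood lower (6.93%, against 5.09%) at an unadjusted p below 0.05. The groups did not overlap in 15 towards higher (14.9%, against 17.6%) and in 19 towards lower (18.8%, against 21.6%). Their median difference was 0.00, against -0.02 over all genes. With obstructed replicate 1 alone 2 were called higher and 3 lower, in all 4.95% against 2.1% of all genes. With replicate 2 alone 5 were called higher and 10 lower, in all 14.9% against 8.45%.

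Among 13 measured IL-1 receptor and toll adaptors and kinases, Irak1, the kinase next to the receptor adaptor, read 8.77 and 8.53 in sham and 9.49 and 9.32 after obstruction (difference 0.75, limma adjusted p = 0.461). In obstructed replicates 1 and 2, Irak2 stood at -0.20 and -0.53 against the sham mean, Irak3 at -0.06 and -0.58 and Casp1, the caspase that cleaves IL-1 precursors, at 0.15 and -0.81. Among 26 TNF receptor adaptors, ubiquitin ligases and death kinases, Casp8, the caspase that death receptors activate, read 7.82 in both sham arrays and 8.17 and 8.76 after obstruction. Traf5, an adaptor, read 9.66 and 9.32 in sham and 9.06 and 8.23 after obstruction. Their differences were 0.65 and -0.84, at limma adjusted p-values of 0.592 and 0.594. Traf1 stood at 0.27 and 0.18 in the obstructed arrays against the sham mean, and the NF-kB inhibitor Tnfaip3 at -0.08 and -0.55.

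The 22 measured JAK kinases, STATs and SOCS inhibitors held 3 genes lower and 1 gene higher with an unadjusted p below 0.05, that is 13.6% and 4.55%, against 5.09% and 3.05% of all genes. Cish, an inhibitor that STAT5 induces, read 10.04 and 9.60 in sham and 8.23 and 8.57 after obstruction. Both obstructed arrays were well below both sham arrays, and the difference was -1.42 (2.68-fold lower, SE 0.25, limma adjusted p = 0.208). With each obstructed array alone against the same sham arrays, which the 2 comparisons share, the adjusted p was 0.0024 and 0.0046 (limma). Jak2 read 8.49 and 9.05 in sham and 8.17 and 7.89 after obstruction, and Stat5b read 6.01, 5.91, 5.44 and 5.65. Stat3, the factor downstream of gp130, read 10.42 and 10.76 in sham and 11.34 and 11.06 after obstruction, a difference of 0.61 (limma adjusted p = 0.567). Of 7 gp130 cytokines and partners, Osmr, the oncostatin M receptor, read 8.97 and 9.23 in sham and 9.82 and 9.21 after obstruction, while Cntfr stood at -0.18 and -0.56 against the sham mean, Cntf at -0.22 and -0.07 and Lifr at -0.14 and -0.07.

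Of 12 other cytokine and receptor genes, Ghr, the growth hormone receptor, read 9.95 and 10.20 in sham and 9.08 and 9.10 after obstruction (difference -0.99, limma adjusted p = 0.303). With each obstructed array alone against these shared sham arrays the adjusted p was 0.0378 and 0.0154 (limma). Csf1, the macrophage growth factor, read 7.39, 7.49, 6.93 and 6.33 (difference -0.81, limma adjusted p = 0.464), Csf2ra stood at 0.37 and 0.07 in the obstructed arrays against the sham mean, and Tslp at -0.01 and -0.48. Of 23 genes induced by IL-6, IL-1 or TNF, the metalloproteinase inhibitor Timp1 read 8.07 and 8.42 in sham and 9.95 and 9.58 after obstruction, a difference of 1.52 (2.86-fold, SE 0.24, limma adjusted p = 0.171). Haptoglobin, Hp, read 9.50 and 8.36 in sham and 6.99 and 6.66 after obstruction, with a difference of -2.10 (adjusted p = 0.215, limma). Of 6 measured adipocyte markers, 4 lay above the median and 4 were lower without overlap, against 21.6% of all genes. Medians of the 6 against sham were -0.65 and -0.83 in the obstructed arrays. Their summed linear level was 2188, 1099, 306 and 333, in the same order over the sham arrays as Hp. The part of fat tissue in the Hp values was not tested. Ptgs2, the inducible cyclooxygenase, named after its values were seen, was high only in obstructed replicate 2, at 11.51 against 8.03, 8.0 and 7.34 in the other arrays. Tnfaip2 stood at 0.25 and 0.55 in the obstructed arrays against the sham mean, and Vcam1, which binds leukocytes to endothelium, at -0.38 and -0.43.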

How the data were processed

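Bladder RNA was measured on 4 single-colour Illumina arrays, 2 per group. The deposited table holds log2 intensities. This scale was inferred, since values run from 4.14 to 15.63 and no label or header gives it. The columns' sorted values differed by at most 0.0252, as after quantile normalization. How the authors normalized them, with which background correction and software, is not given in the sources used here. Detection p-values were not used. Differences between dim values may understate changes.

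Probes were named from the platform annotation, which may be old. Of 46657 probes 22380 had 1 gene symbol, and all 22380 matched the RefSeq gene table. The brightest probe per gene by the mean of 4 arrays gave 15366 genes, of which 107 were members. There were 0 unused columns of values.

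Obstructed and sham were compared with lmFit and eBayes of limma 3.58.1 (R 4.3.3) with a mean-variance trend, two-sided, without a filter, with Benjamini-Hochberg adjustment over all 15366 genes and a threshold of 0.05. Each obstructed array was also fitted alone against both sham arrays. Differences are obstructed minus sham, values in a series are in the order sham 1, sham 2, obstructed 1, obstructed 2, and intervals are 95% intervals of the fit. The number of arrays limits the precision. The fit was tested on simulated data. Summed levels are sums of 2 raised to the log2 values.

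Members named were those above the median of all probes with an unadjusted p below 0.05, up to 3 further members per role by brightness, and 9 cytokines. From each pathway list up to 4 genes with the smallest p were named. Tnfsf15, Il1rn, Il22, Il21, Tnfsf12, Il15ra, Il1rap, Il17d, Tnfrsf1b, Tnfrsf9, Tnfrsf13b, Tnfrsf13c, Tnfrsf25 and Ptgs2 were added after their values were seen, as were single marker genes and the genes given only as sharing an order of arrays or a motif. Members and lists were chosen with earlier results of these data known. Il4i1, first listed with the receptors, was set apart for what it encodes. Alternatives were quantile normalization, centring, a floor of 50 on the linear scale, leaving out dim genes, the mean of all probes, each probe on its own, eBayes without the trend or with a robust trend, a replicate block, leaving out each array in turn, and an adjusted p below 0.1. Promoters are from RefSeq (GRCm38.p6). Python 3.11.15 ran the motif searches, and matplotlib 3.10.9 drew the figures.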

Additional observations from a re-analysis of the deposited data

How the results depend on the processing

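With 2 arrays per group, the single arrays decided more than any other choice. No member was called under the other 10 alternatives, and leaving out 1 array gave 0 to 1 members called higher and 0 to 2 lower, the higher ends without obstructed replicate 1. Over all genes, 4 were called higher and 4 lower. These counts were 0 and 0 with a floor of 50, 2 and 1 without dim genes, 0 and 1 with the replicate number as a block, 7 and 16 at an adjusted p below 0.1, and 0 to 519 and 0 to 780 when 1 array was left out. Without the trend 2 were called higher, and with a robust trend 11 were called lower. Members higher at an unadjusted p below 0.05 numbered 6, but 2 without dim genes, 2 without the trend, 3 with the block and 2 to 12 when 1 array was left out. Members lower numbered 2, but 5 with the floor, 1 with the mean of all probes and 1 to 9 when 1 array was left out. Pathway genes called went from 0 in each direction to 0 to 5 higher and 0 to 10 lower. The labels pair no samples, and the deviations of arrays with the same replicate number did not correlate (r = -0.017 over genes). That single correlation cannot show whether samples were paired. With the mean of all probes, the difference turned to 0.048 in Il24, -0.071 in Il12a, 0.027 in Il17ra, -0.0079 in Il1rap and -0.14 in Tnfrsf22, and with the floor to 0.0079 in Tnfrsf13c. Leaving out 1 array turned the sign in 34 of 68 named members and in 2 of 25 named pathway genes, Casp1 (-0.81 to 0.15) and Ptgs2 (-0.67 to 3.49). The ranges of the log2 differences were Il10ra (-0.19 to 0.19), Il10rb (-0.00010 to 0.17), Il12a (-0.13 to 0.24), Il16 (-0.49 to 0.34), Il17d (-0.59 to 0.14), Il17ra (-0.20 to 0.11), Il18 (-0.23 to 0.13), Il18r1 (-0.47 to 0.14), Il1a (-0.28 to 0.021), Il1f9 (-0.013 to 0.22), Il1r1 (-0.080 to 0.58), Il1rap (-0.020 to 0.060), Il1rl2 (-0.11 to 0.24), Il20ra (-0.11 to 0.42), Il24 (-0.13 to 0.11), Il2rb (-0.26 to 0.25), Il34 (-0.38 to 0.19), Il6 (-0.037 to 0.23), Il6ra (-0.40 to 0.036), Il7 (-0.24 to 0.16), Lta (-0.24 to 0.14), Ltb (-0.14 to 0.29), Tnf (-0.032 to 0.59), Tnfrsf10b (-0.055 to 0.083), Tnfrsf11b (-0.35 to 0.56), Tnfrsf13b (-0.24 to 0.26), Tnfrsf13c (-0.32 to 0.15), Tnfrsf1a (-0.70 to 0.34), Tnfrsf1b (-0.33 to 0.41), Tnfrsf21 (-0.19 to 0.21), Tnfrsf22 (-0.31 to 0.33), Tnfrsf9 (-0.0068 to 0.43), Tnfsf12 (-0.17 to 0.040) and Tnfsf13 (-0.24 to 0.33). The causes were not tested. With no detection test, differences of members near or below the median of all probes have no known signal over background.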

Other observations

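Probes of 1 gene did not always give the same direction. Of the 107 members, 14 had 2 or more probes brighter than the median probe. Such probes gave differences of opposite sign in 7 of those genes, namely Il12rb1, Il17ra, Il17rc, Il1rap, Il6st, Tnfrsf19 and Tnfrsf22. The 5 members whose promoters held an NF-kB match were Il2ra, Il22ra1, Tnfrsf8, Il6 and Ltb, and only Ltb among them had a higher group mean above the median.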
